A study of Mus musculus with 6 samples.

Results

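The 10 genes described belong to membrane lipid transfer and autophagy, and they were measured by RNA-seq in mouse liver after knockdown of the lncRNA Hnf1aos1. They are the lipid scramblase genes Vmp1 and Tmem41b, the VPS13 family (Vps13a, Vps13b, Vps13c and Vps13d) and the autophagy genes Sqstm1, Map1lc3b, Ulk1 and Atg7. They were chosen by name, as 10 of the 40803 mouse genes in the count table, and 10 of 10 passed the filter on low counts that left 16327 genes to be tested. Liver RNA came from male C57BL/6J mice of about 6 weeks that received rAAV8, a recombinant adeno-associated virus that transduces hepatocytes, by tail vein, with free access to food, and livers were taken 4 weeks later. In the rAAV8-sh-Hnf1aos1 group (3 mice, 1 library each) the virus carried a short hairpin RNA against Hnf1aos1 under a U6 promoter, and in the rAAV8-sh-scramble group (3 mice, 1 library each) a scrambled hairpin. Both groups thus received virus and a hairpin, the paper also describes an EGFP reporter in the construct, and no uninjected mice are among these libraries.

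In autophagy, a double membrane grows around cargo, closes into an autophagosome and fuses with a lysosome, where the cargo is degraded. The growing membrane needs phospholipids, which bridge-like proteins such as the VPS13 family carry between organelles at contact sites, while scramblases such as VMP1 and TMEM41B move lipids between the leaflets of the endoplasmic reticulum membrane. In liver, VMP1 and TMEM41B are also known for their part in the release of lipoproteins from the endoplasmic reticulum. ULK1 starts the process, ATG7 drives the conjugation of LC3 to lipid, and SQSTM1 (p62) links ubiquitinated cargo to LC3 and is itself degraded with it, so transcript levels of these genes are not a measure of autophagic flux.

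The gene counts of the libraries summed to between 14704746 and 16532510 in the scramble group and to between 18021614 and 19462398 in the knockdown group. Every knockdown library was thus deeper than every scramble library. Hnf1aos1 had normalized counts (counts divided by the TMM-scaled library size and set to the mean library) of 512, 490.6 and 620.3 in the scramble group and of 278.5, 258.5 and 432.9 in the knockdown group. The groups did not overlap, and the log2 fold change was -0.74 (SE 0.195), with an adjusted p of 0.0625 in edgeR's quasi-likelihood test, above the threshold of 0.05, and of 0.00294 in DESeq2. Hepatocyte transcripts dominated all libraries, with summed normalized counts of 7 hepatocyte markers between 1247000 and 1578000. Spike-in RNAs made up 1.38 to 1.52% of each scramble library and 1.18 to 1.24% of each knockdown library. Scaling by them instead of TMM moved the median change over the 16327 tested genes from -0.0004 to 0.20 (log2), and changes below are relative to the TMM scale unless stated.

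Vmp1 rose and Vps13d fell, and the other 8 genes did not pass the test. A gene was called where its adjusted p from edgeR, with Benjamini-Hochberg adjustment over all 16327 genes, was under 0.05, and 6.32% of all genes were called in either direction, 3.09% higher and 3.23% lower. Of the 10 genes, 1 was called higher and 1 lower. Normalized counts did not overlap between the groups for 3 genes (Vmp1, Vps13d and Sqstm1), against 28.9% of all genes. The median log2 fold change of the 10 was 0.02, and 5 were above 0 and 5 below. Vmp1 and Vps13d were among the hepatic regulators that the study singled out from these same libraries, so their directions here are not independent evidence. The study's threshold for differential genes also asked for a log2 fold change beyond 1 in either direction, which neither gene reached here. The paper also reports RT-qPCR of both genes between the same treatment groups, with significant changes in the same directions. Whether the RT-qPCR used the mice that were sequenced is not stated, and its data were not examined here.

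**Figure D1:**
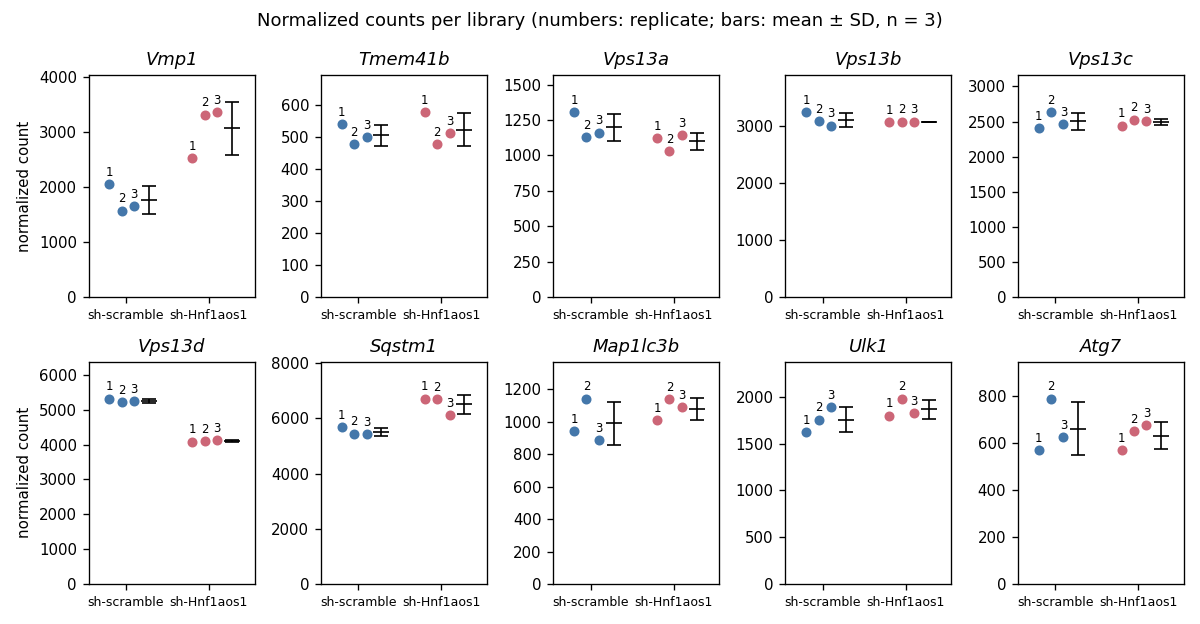
Normalized counts (vertical axes, each from 0) of the 10 genes in each library of the rAAV8-sh-scramble (blue) and rAAV8-sh-Hnf1aos1 (red) groups, with numbers for the replicate and bars for the mean ± SD (n = 3). Vmp1 lay between 1574 and 2054 in the scramble group and between 2518 and 3363 in the knockdown group, and Vps13d between 5206 and 5314 against 4083 and 4132.

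On GRCm38, the build that the methods name (GENCODE M21 positions, matched by symbol), Vmp1 lies on the minus strand at chr11:86583865-86683836, Vps13d on the minus strand at chr4:144972622-145195005, Tmem41b at chr7:109972187-109986929, Sqstm1 at chr11:50199366-50210827 and Vps13a at chr19:16615366-16780933. No other gene is annotated over Vps13d. Over Vmp1 lie Mir21a, inside its last exon and listed at 0 counts in all 6 libraries, and the pseudogene Gm11478, with 7 to 17 counts and a log2 fold change of 0.01 (edgeR adjusted p = 0.995). Vmp1 itself had 1434 to 3713 counts. Vps13b (chr15:35371160-35931229), Vps13c (chr9:67840396-67995638) and Atg7 (chr6:114643097-114860614) lie on the plus strand, as does Map1lc3b (chr8:121590361-121598760), and Ulk1 lies on the minus strand at chr5:110784488-110810097. Opposite-strand genes overlap the ends of Vps13b (Cox6c, 864 to 1026 counts) and Map1lc3b (Zcchc14, 906 to 1205 counts), and since the strand setting of the counting is not known, their reads could be shared there.

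The 250 bases before the outermost annotated starts of Vmp1 and Vps13d, the 2 genes that were called, are shown 5′ to 3′ on the gene's strand (RefSeq, GRCm38.p6, chr11:86683837-86684086 and chr4:145195006-145195255), with capitals for matches to any of 5 motifs searched on both strands. These were a STAT motif (TTCNNNGAA) and an E-box (CACGTG), then an ETS motif (CCGGAAG) and the box of the factor NF-Y (CCAAT), and lastly a repeat of the interferon response type (GAAANNGAA).
Vmp1: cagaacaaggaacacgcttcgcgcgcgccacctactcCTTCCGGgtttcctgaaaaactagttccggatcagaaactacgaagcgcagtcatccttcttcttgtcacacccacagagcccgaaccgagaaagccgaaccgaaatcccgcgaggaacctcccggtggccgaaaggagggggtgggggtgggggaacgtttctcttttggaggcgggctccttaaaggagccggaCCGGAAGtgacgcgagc
Vps13d: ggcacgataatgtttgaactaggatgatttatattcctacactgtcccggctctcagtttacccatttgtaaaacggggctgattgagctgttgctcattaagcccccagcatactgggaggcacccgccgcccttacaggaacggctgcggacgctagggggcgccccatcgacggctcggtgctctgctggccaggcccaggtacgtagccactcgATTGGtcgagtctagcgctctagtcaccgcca
The Vmp1 window held 2 ETS matches, at -213 and -17 from the start, a motif found in 6.91% of 32851 windows of the same length, and the Vps13d window held 1 NF-Y match at -32, found in 33.8%. The STAT, E-box and interferon-type motifs, found in 7.02, 6.02 and 7.13% of windows, had no match in either. The windows of the other annotated starts, 2 for Vmp1 and 1 for Vps13d, held no match to any of the 5 motifs. No matches overlapped each other. They are letters in a window and not sites of binding, and nothing in these libraries measured binding there.

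Vmp1 (vacuole membrane protein 1), the scramblase needed for autophagosomes to form and leave the endoplasmic reticulum, had normalized counts of 2054, 1574 and 1653 in scramble replicates 1, 2 and 3. In the knockdown group they were 2518, 3310 and 3363. The knockdown libraries were all above the scramble libraries, with replicate 1 of each group closest to the other group. The mean rose from 1760 ± 257.4 to 3063 ± 473.5 (SD, n = 3), a log2 fold change of 0.80 (SE 0.136, edgeR adjusted p = 0.0107), or 1.74-fold. In TPM, the authors' length-scaled level, Vmp1 went from 72.1 ± 10.2 to 118.7 ± 14.8 (SD, n = 3). DESeq2 gave an adjusted p of 4.698e-06 and limma's voom 0.0152. Without scramble replicate 3 the log2 fold change was 0.75 with an edgeR adjusted p of 0.0854, and with any other library left out the call held.

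Tmem41b, which encodes the other scramblase of the same family and a binding partner of VMP1, had normalized counts of 539.7, 477.5 and 499.3 in the scramble group and of 578.9, 478 and 513.5 after knockdown. The groups overlapped, and the log2 fold change of 0.05 (SE 0.103, edgeR adjusted p = 0.813) was smaller than its error and turned to -0.02 with library totals in place of TMM. The ratio of Vmp1 to Tmem41b raw counts within a library does not depend on the library's scaling. It was 3.81, 3.30 and 3.31 in the scramble libraries and 4.35, 6.92 and 6.55 in the knockdown libraries. The mean ratio was 3.47 ± 0.290 against 5.94 ± 1.39 (SD, n = 3), a log2 difference of 0.75, without overlap, and an exact two-sided permutation test gave p = 0.1, the smallest that 3 against 3 allows.

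Vps13d, whose protein is known for its role in mitochondrial clearance and in contacts of mitochondria and peroxisomes with the endoplasmic reticulum, had normalized counts of 5314, 5206 and 5240 in the scramble group. In the knockdown group they were 4083, 4092 and 4132. The spread within each group was narrow beside the gap between them. It was also far below edgeR's common biological coefficient of variation of 13.9%, and a spread from 3 libraries is itself imprecise. The mean went from 5253 ± 55.0 to 4102 ± 26.2 (SD, n = 3), a change of -21.9% and a log2 fold change of -0.36 (SE 0.0852, edgeR adjusted p = 0.0345), and DESeq2 gave an adjusted p of 0.00479. In TPM the level was 37.4 ± 1.13 against 27.7 ± 0.843 (SD, n = 3). The call did not hold with an offset for gene length (-0.20, edgeR adjusted p = 0.222) or with library sizes from the spike-ins (-0.16, adjusted p = 0.280). It also did not hold when a single library other than knockdown replicate 3 was left out, although the log2 fold change stayed between -0.37 and -0.35 and the adjusted p reached at most 0.127.

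The other members of the family did not pass the test. Vps13a, the chorein gene whose protein acts between the endoplasmic reticulum and mitochondria or lipid droplets, had normalized counts of 1307, 1127 and 1161 in the scramble group against 1124, 1031 and 1145 in knockdown libraries, a log2 fold change of -0.12 (SE 0.0922, edgeR adjusted p = 0.449). Vps13b, which encodes a Golgi protein, had 3240, 3076 and 3000 against 3063, 3068 and 3069, a log2 fold change of -0.02 (SE 0.0843, edgeR adjusted p = 0.921). Vps13c, whose protein joins the endoplasmic reticulum to late endosomes and lysosomes, had 2402, 2638 and 2466 against 2442, 2528 and 2505, a log2 fold change of -0.01 (SE 0.0847, edgeR adjusted p = 0.975). In these 3 genes the knockdown values overlapped the scramble values. With the spike-in sizes the log2 fold changes were 0.08 for Vps13a, 0.18 for Vps13b and 0.19 for Vps13c, none called, so no direction is given for them.

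Vps13d was set against its family within each library, where scaling cancels. Its raw counts divided by the summed counts of Vps13a, Vps13b and Vps13c gave 0.765, 0.761 and 0.791 in the scramble libraries and 0.616, 0.617 and 0.615 in the knockdown libraries. The ratio was lower in every knockdown library, with means of 0.772 ± 0.0161 and 0.616 ± 0.00125 (SD, n = 3), a log2 difference of -0.33, and the exact two-sided permutation p was 0.1, the smallest possible here. The log2 difference stayed between -0.34 and -0.31 with any library left out. The SDs come from 3 libraries each and are imprecise, so their small size is not a measure of certainty. A ratio of this kind compares genes with each other and does not show that the other 3 stayed level.

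**Figure D2:**
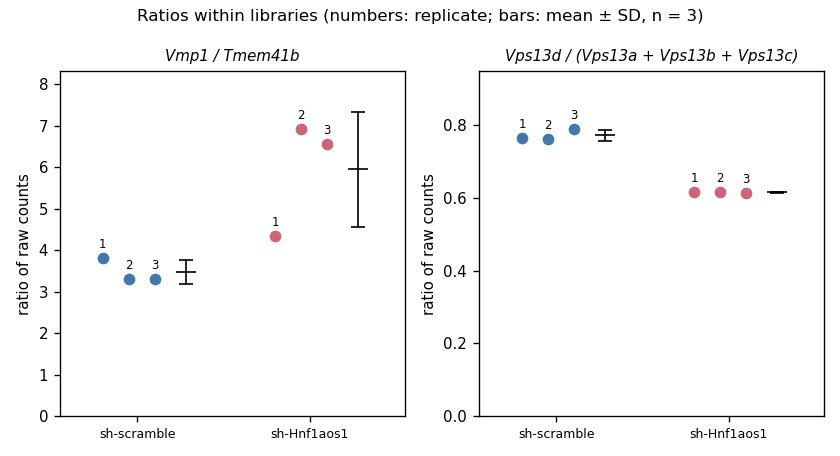
Ratios of raw counts within each library (vertical axes from 0), Vmp1 over Tmem41b on the left and Vps13d over the summed other VPS13 genes on the right, in rAAV8-sh-scramble (blue) and rAAV8-sh-Hnf1aos1 (red) libraries, with the mean ± SD (n = 3). The first ratio was 3.30 to 3.81 against 4.35 to 6.92, and the second 0.761 to 0.791 against 0.615 to 0.617.

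The VPS13 transcripts are among the longest in the liver, and fold changes were lowest among the longest transcripts. The lengths behind the authors' TPM values, obtained from counts over TPM and set to the GENCODE scale, were 15127 bases for Vps13a, 14069 for Vps13b, 18133 for Vps13c and 18692 for Vps13d, so that with the tested genes divided by length into 10 bins of about 1630 genes, all 4 were in the longest bin. Lengths from TPM were only partly those of the annotation, with 35.7% of genes within 10% of their GENCODE exon length, which was 17801 bases for Vps13a, 21273 for Vps13b, 16299 for Vps13c and 24771 for Vps13d. The comparisons by length and the offset rest on the lengths from TPM. The median log2 fold change was -0.03 in the shortest bin, 0.05 in bin 2 and -0.14 in the longest bin, where 30.3% of genes were above 0. Of 817 tested genes at least as long as Vps13b on this scale, 74.1% were below 0, 6 were called higher and 73 lower, and 213 had a lower log2 fold change than Vps13d. Vps13d therefore lay in the lower part of the genes of its length but not outside them. The part that length has in its result was not tested beyond the offset given above. Vmp1, with 3242 bases, was in bin 5, where the median log2 fold change was 0.04, and the offset gave 0.76 (edgeR adjusted p = 0.0130).

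**Figure D3:**
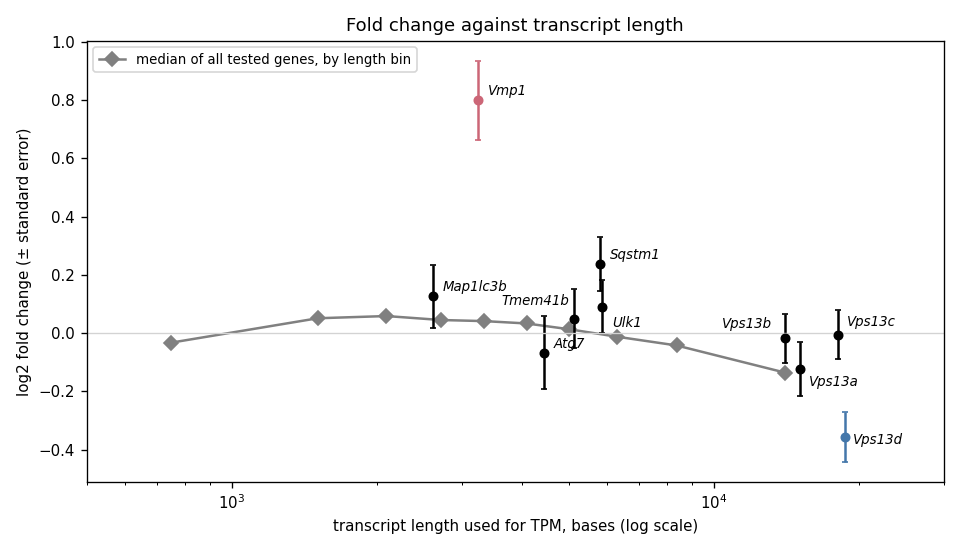
Log2 fold change (vertical axis, ± standard error) against transcript length in bases (horizontal log axis) for the 10 genes, with the median of all tested genes in each of 10 length bins in grey. The medians are -0.03 in the shortest bin, 0.06 at most and -0.14 in the longest bin, Vps13d lies below this at -0.36, and Vmp1 at 0.80 lies far above the median of 0.04 of its bin.

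Among the autophagy genes, Sqstm1, the p62 cargo receptor and a target of NRF2, had normalized counts of 5685, 5454 and 5426 in the scramble group and of 6717, 6690 and 6116 in the knockdown group. All knockdown libraries were above all scramble libraries, but the log2 fold change of 0.24 (SE 0.0914) did not pass edgeR's test. The unadjusted p of edgeR's quasi-likelihood test was 0.0245 and the adjusted p 0.145. It passed only with the spike-in sizes, where it was 0.44 with an edgeR adjusted p of 0.0133, on a scale on which the median of all genes was 0.20. Mrnip, a gene on the opposite strand that overlaps the end of Sqstm1 in the annotation, had at most 157 counts in any library against at least 4934 for Sqstm1.

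The remaining 3 autophagy genes overlapped between the groups. Map1lc3b, which encodes the LC3B protein of autophagosome membranes, had normalized counts of 941.9, 1142 and 885.4 against 1008, 1140 and 1090, a log2 fold change of 0.13 (SE 0.108, edgeR adjusted p = 0.516). Ulk1, the kinase that starts autophagosome formation, had 1620, 1756 and 1886 against 1798, 1980 and 1824, a log2 fold change of 0.09 (SE 0.0915, edgeR adjusted p = 0.589). Atg7, the E1-like enzyme of the conjugation systems, had 570.5, 788.1 and 625.8 against 568.4, 649 and 676.6, a log2 fold change of -0.07 (SE 0.125, edgeR adjusted p = 0.794), which turned to 0.13 with the spike-in sizes. Scramble replicate 2 was the highest library for Atg7, and its spread within the scramble group was wider than the difference between the groups. Changes of this size could not be told from the variation between mice with 3 libraries a group, for which edgeR's common biological coefficient of variation was 13.9%.

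**Figure D4:**
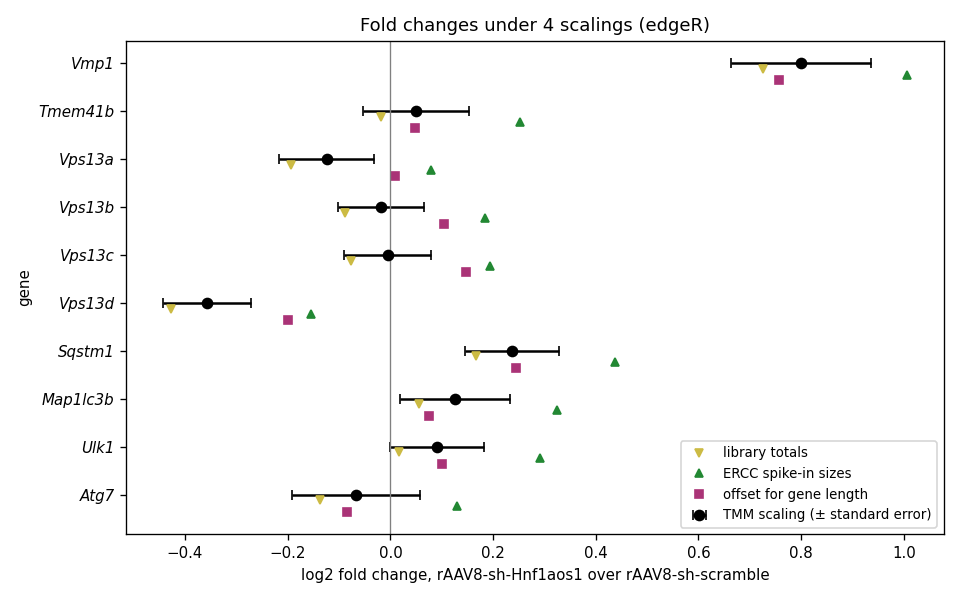
Log2 fold change (horizontal axis) of the 10 genes (vertical axis) with TMM scaling (black, ± standard error), library totals (yellow), spike-in library sizes (green) and an offset for gene length (purple), all from edgeR. Vmp1 lies between 0.73 and 1.0054 in all 4, Vps13d between -0.43 and -0.16, and 5 of the other 8 genes (Tmem41b, Vps13a, Vps13b, Vps13c and Atg7) change sign between the scales.

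By mean TPM over all 6 libraries, a per-length level, Sqstm1 was highest (134.1), followed by Vmp1 (95.4), Map1lc3b (51.2), Ulk1 (39.9), Vps13d (32.5), Vps13b (28.4), Atg7 (18.8), Vps13c (17.8), Tmem41b (12.98) and Vps13a (9.85). The ranges over the libraries of both groups overlapped between the neighbours Sqstm1 and Vmp1, Ulk1 and Vps13d, Vps13d and Vps13b, and Atg7 and Vps13c. Within every library Sqstm1 was above Vmp1 and Vps13d above Vps13b, though closely in some knockdown libraries. In knockdown replicate 3 Sqstm1 had 130.9 against 128.7 for Vmp1, and in knockdown replicate 1 Vps13d had 28.59 against 28.5 for Vps13b. The order of Ulk1 and Vps13d, and of Atg7 and Vps13c, changed between libraries. Vmp1 was far more abundant per length than its family member Tmem41b in every library, with TPM of at least 63.1 against at most 14.8. Vps13d was the most abundant VPS13 gene in the scramble group, at 37.4 ± 1.13 against 29.3 ± 0.923 for Vps13b (SD, n = 3), while in the knockdown group the levels of both were alike, at 27.7 ± 0.843 and 27.5 ± 0.897. Such comparisons between genes rest on the lengths behind the TPM values. These were 18692 bases for Vps13d and 14069 for Vps13b, against GENCODE exon lengths of 24771 and 21273, so the likeness depends on them.

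The wider pathway was described with 12 lists of 124 genes in all, of which 114 are not among the 10. Of these 114, 0 were called higher and 2 lower (Depp1 and Lipa) by edgeR, and DESeq2 called 5, or 4.39%, against 7.8% of all genes. An unadjusted edgeR p under 0.05 was found for 23 (20.2%), against 23.4% of all genes, and 33 (28.9%) did not overlap between the groups, against 28.9%. Their median log2 fold change was 0.04, against -0.0004 over all genes. With the spike-in sizes 31 of them were called higher and 1 lower, on a scale on which 3030 of all genes were called higher and 364 lower, against 505 and 527 with TMM.

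Depp1, a FoxO target gene that regulates autophagy, had normalized counts of 995.2, 1226 and 742.4 in the scramble group and of 407.2, 412.4 and 283.5 in the knockdown group. The groups were well apart, and the log2 fold change was -1.43 (SE 0.215, edgeR adjusted p = 0.0141), from 97.3 ± 21.4 to 34.6 ± 7.31 TPM (SD, n = 3). Without knockdown replicate 1 the edgeR adjusted p was 0.0555. Lipa, the lysosomal acid lipase that hydrolyses cholesteryl esters and triglycerides, had 5390, 6091 and 5196 against 4288, 4176 and 4260. It fell by 0.39 on the log2 scale (SE 0.0951, edgeR adjusted p = 0.0374), but was called in only 1 of 6 fits with a library left out (without knockdown replicate 3), with adjusted p up to 0.133, and was not called with the spike-in sizes.

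Among the 6 scramblases only Vmp1 was called by edgeR. Tmem64, of the same protein family, had a log2 fold change of -0.40 (edgeR adjusted p = 0.0553, DESeq2 0.0372) and was named after its value was seen. Of 10 bridge-like lipid transfer genes only Vps13d was called, 7 of the 10 were below 0, and the most abundant, Bltp2, had -0.07 (edgeR adjusted p = 0.719). The lengths from TPM of these 10 ran from 6712 bases (Atg2a) to 18692 (Vps13d), and in the longest length bin 30.3% of all genes were above 0. Of the 11 partners at membrane contact sites edgeR and DESeq2 called 0. At an unadjusted edgeR p under 0.05 were 0, against 23.4% of all genes. Of the 11, 8 were above 0, and Atp2a2, the SERCA calcium pump that VMP1 binds, had 0.25 (edgeR adjusted p = 0.337). The list that holds Vmp1 had a median log2 fold change of 0.04 and the bridge-like proteins of -0.05. With the offset for gene length the median of the bridge-like proteins was 0.04, and 0 of them were called.

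In the 5 genes of the ULK complex, the 9 of the class III PI3-kinase complex, the 5 PI3P effectors and the 11 of the conjugation machinery, 0 genes were called by edgeR or DESeq2, with 1, 0, 2 and 2 at an unadjusted p under 0.05. The medians of these lists were 0.09, 0.07, 0.06 and -0.04. Sh3glb1, a binding partner of the PI3-kinase complex, had a log2 fold change of 0.07 (edgeR adjusted p = 0.633), Wipi2, which reads PI3P, 0.06 (0.753), and Atg3, the E2-like enzyme for LC3, -0.22 (0.155). The 5 LC3 and GABARAP genes had 0 calls by edgeR and DESeq2 and 0 at an unadjusted p under 0.05, and Gabarap, the most abundant, went from 244.9 ± 12.4 to 251.3 ± 5.39 TPM (SD, n = 3). No gene of these 5 lists was called. At 6.32% called by edgeR and 7.8% by DESeq2 over all genes, lists of 5 to 11 genes can lack calls without differing from them. Atg13 of the ULK complex had a log2 fold change of 0.31 (edgeR adjusted p = 0.0656) and the PI3P effector Wdr45b 0.35 (0.0517). Both were named after their values were seen, and their groups did not overlap. Of their lists, 4 of 5 and 3 of 5 genes were above 0.

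Of 13 cargo receptors edgeR called 0, with 5 (38.5%) at an unadjusted p under 0.05, against 23.4% of all genes. DESeq2 called Bnip3, a receptor for mitochondria (log2 fold change -0.41, edgeR adjusted p = 0.0728, DESeq2 0.0463), named after its value was seen. Of 11 fusion genes edgeR and DESeq2 called 0, with 1 (9.09%) at an unadjusted p under 0.05, against 23.4% of all genes. This was Vps39 (log2 fold change 0.34, edgeR adjusted p = 0.0608), named after its value was seen. Of the 11, 7 were above 0 and 4 below, and the SNARE gene Vamp8 had a log2 fold change of 0.0001. Of 17 regulators only Depp1 was called by either tool, and Trp53inp2, a cofactor of LC3, had 0.21 (edgeR adjusted p = 0.187). Of 21 lysosomal genes only Lipa was called by edgeR, 13 of 21 were above 0, and Lamp1, the most abundant membrane protein of the list, had 0.31 (edgeR adjusted p = 0.117). Of the 21, 7 (33.3%) had an unadjusted edgeR p under 0.05, against 23.4% of all genes. The groups did not overlap for 9 (42.9%), against 28.9%. Ctsl, a lysosomal protease named after its value was seen, had 0.68 (edgeR adjusted p = 0.0618, DESeq2 0.00163), with normalized counts of 3798, 3908 and 3429 against 7847, 5313 and 4647, highest in knockdown replicate 1.

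**Figure D5:**
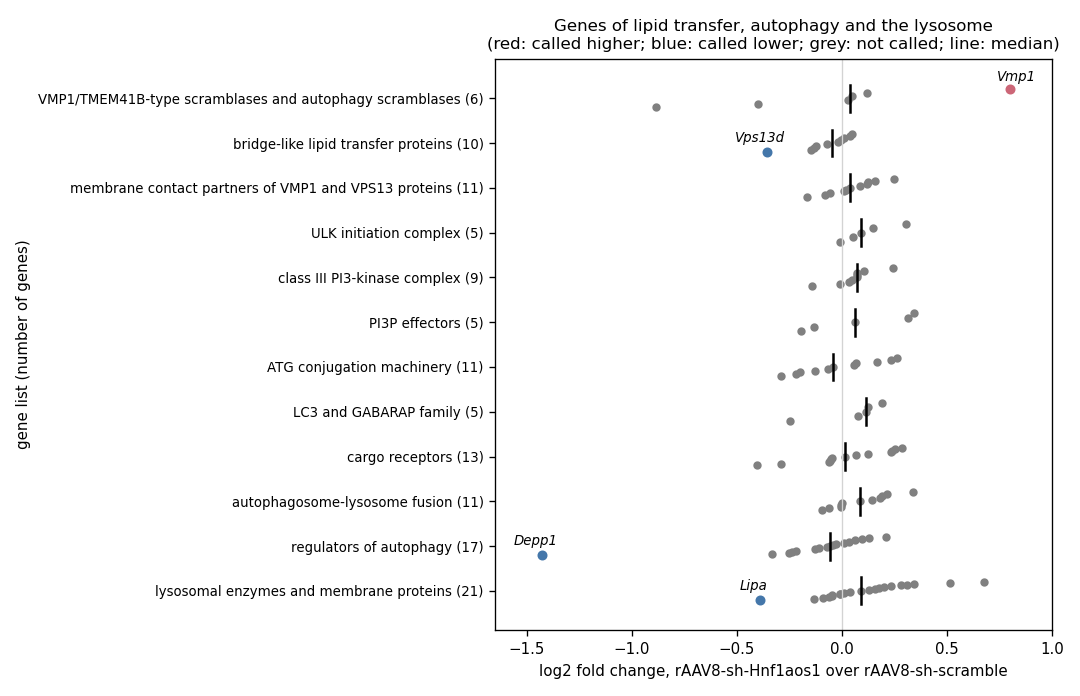
Log2 fold change (horizontal axis) of each gene in 12 lists of lipid transfer, autophagy and the lysosome (vertical axis, number of genes in brackets), with called genes in colour and the list medians as black lines. Only Vmp1 is called higher, at 0.80, and Vps13d (-0.36), Lipa (-0.39) and Depp1 (-1.43) are called lower, while the list medians lie between -0.06 and 0.11.

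Some macrophage markers were higher in the knockdown group, while edgeR called none of the tested markers of other liver cells. All 9 macrophage markers were above 0 counts in the libraries, and 9 of 9 had a log2 fold change above 0 (median 0.44). Of the 9, 8 (88.9%) had an unadjusted edgeR p under 0.05, against 23.4% of all genes, and 7 (77.8%) did not overlap between the groups, against 28.9%. Their summed normalized counts ranged from 2946 to 3550 in the scramble group and from 3746 to 4824 in the knockdown group, with 2 of 9 called higher. These were Clec4f (log2 fold change 0.44, edgeR adjusted p = 0.0327) and Adgre1 (0.41, 0.0485), both Kupffer cell markers, although Adgre1 was called in only 2 of 9 alternative fits and Clec4f lost its call in 4 of 6 fits with a library left out (scramble replicates 2 and 3, knockdown replicates 1 and 2). Neutrophil markers, too low to be tested, summed to 4.10 to 5.50 against 11.8 to 31.4, all 7 under a mean of 10 counts and Ly6g and Mpo at 0, and S100a8, the most abundant, had a mean of 0.483 against 2.18 TPM. The 5 cholangiocyte markers summed to 578.5 to 688.4 against 833.3 to 2542, where Spp1 had 2161 normalized counts in knockdown replicate 1, and of the 4 tested, edgeR and DESeq2 called 0, with 0 at an unadjusted p under 0.05. Sums of hepatocyte, endothelial, stellate and lymphocyte markers overlapped between the groups, and Alb, Clec4g, Dcn and Cd79a, the most abundant of each, were not called. Single genes of these lists still moved. Of 7 hepatocyte markers 6 were above 0 (median 0.19), 3 (42.9%) had an unadjusted edgeR p under 0.05 and DESeq2 called 1 higher. Of the 7, 4 (57.1%) did not overlap between the groups, against 28.9% of all genes. Of 6 endothelial and 6 stellate markers, 5 each were below 0 (medians -0.02 and -0.17). The part of these cell types in the results of Vmp1, Lipa, Ctsl or Sqstm1 was not tested. In bulk tissue a change in the number of cells of a type and a change in RNA per cell cannot be told apart.

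The genes whose log2 CPM followed Vmp1 most closely over the 6 libraries were Ahsg (Pearson r = 0.998), Pdia6, Lrrc51, Atp6v1b2 and A930037H05Rik, and those closest to Vps13d were Herc1 (r = 0.998), Adamts9, Cst6, Neat1 and Paxx. The lowest r of the 10 was 0.9899 (Paxx with Vps13d), a description over libraries in which group and depth go together. Ahsg, which encodes the plasma protein fetuin-A, had a log2 fold change of 0.52 (edgeR adjusted p = 0.0345), and the long gene Herc1 had -0.30 (edgeR adjusted p = 0.0471). Neat1, the paraspeckle lncRNA, fell with a log2 fold change of -1.85 (edgeR adjusted p = 0.000142).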

How the data were processed

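Liver RNA of 6 mice was sequenced, 3 per group, 1 library per mouse per the methods. The authors trimmed the reads with Trimmomatic, aligned them with STAR and deposited raw counts of uniquely mapped exonic reads per gene from featureCounts, TPM values, and a signal of normalized counts (counts divided by 1 factor per library), used here only as an alternative. The table of the authors' DESeq2 comparison (fold changes and p-values) was not used. The methods name a stranded poly(A) kit and GRCm38, while the labels describe ribosomal RNA depletion and the submitters' processing notes list GRCm39. The strand setting and annotation are not given in the sources used here, so reads of overlapping antisense genes may be shared.

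The 92 ERCC rows were left out. Counts were filtered by filterByExpr, scaled by TMM and tested with edgeR 4.0.16 (R 4.3.3, robust quasi-likelihood fit, group as the only term, Benjamini-Hochberg adjustment, threshold 0.05). limma 3.58.1 (voom) and DESeq2 1.42.0 were alternatives, and figures used matplotlib 3.10.9. The SE given with edgeR's log2 fold changes is their size divided by the square root of the test's F statistic. It therefore restates the test and is not a separate estimate. log2 CPM used a prior count of 2, and log2 TPM a pseudocount of 0.1 or 1. Exact permutation tests were two-sided (scipy 1.17.1). The scripts were tested on simulated data. No libraries looked like repeat deposits: chi-square values between replicates were 7.8 to 32.4 a gene, and sampling noise gives about 1. Named were the 10 genes, in each list every called gene (or the 4 with the lowest p) and the gene highest in TPM, Hnf1aos1, genes annotated over Vmp1 or Vps13d, and for each of these 2 the 5 genes most correlated with it. Tmem64, Atg9b, Atg13, Wdr45b, Bnip3, Vps39 and Ctsl, and the genes overlapping other members (Mrnip, Cox6c and Zcchc14), were named outside this rule, after their values were seen. The members and lists were chosen with earlier results of these data known. The gene counts of 14704746 to 19462398 per library gave each of the 10 genes at least 435 counts per library. With a common biological coefficient of variation of 13.9%, variation between mice limits the precision in general. The spread of a single gene over 3 libraries can be narrower, as for Vps13d.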

Additional observations from a re-analysis of the deposited data

How the results depend on the processing

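Vmp1 kept its direction and its call under all 9 alternative tests, scalings, filters and designs (log2 fold change 0.73 to 1.0054), and Vps13d kept its direction under all 9 but its call under 6. The numbers of genes called higher and lower, 505 and 527, became 320 and 728 with library totals, 3030 and 364 with spike-in sizes, and 870 and 1032 with no filter on low counts. With a library left out they ranged from 38 to 1015 higher and from 65 to 866 lower, the lowest without scramble replicate 3 and the highest without knockdown replicate 3. Of the 10 genes, 2 were called higher with spike-in sizes (Vmp1 and Sqstm1) and 0 lower with spike-in sizes, with the replicate block and with the length offset, and with a library left out 0 to 1 were called in each direction. Signs turned for Tmem41b (library totals -0.0192; a library left out -0.0356 to 0.11), Vps13a (spike-ins 0.0798, length offset 0.0085), Vps13b (0.18 and 0.10; left out -0.0482 to 0.0164), Vps13c (0.19 and 0.15; left out -0.0315 to 0.029) and Atg7 (spike-ins 0.13; left out -0.16 to 0.0731). The spike-in sizes raise all genes by a common amount, and the cause of the other shifts was not tested.

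Same-numbered libraries of the groups did not deviate together (correlations of -0.023, 0.023 and 0.003), so no pairing by number was seen. With 3 libraries a group these correlations cannot exclude that same-numbered mice were handled together. With the replicate number as a block, 429 genes were called higher and 449 lower, and Vps13d had -0.36 with an edgeR adjusted p of 0.0628. Lipa and Adgre1 were also not called with the block.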
